A study of Rattus norvegicus with 15 samples.

Results

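The 8 genes of vitamin A (retinoid) handling followed here in rat liver were Lrat, Rbp4, Cyp26a1, Cyp26b1, Aldh1a1, Aldh1a2, Dhrs3 and Rarres2. They are 8 of the 32623 genes in the count table, each found by its symbol, and were chosen by the measured rise of Cyp26a1, one of the larger ones in cirrhosis & eplerenone against control, with the others taken from the same pathway. That comparison is therefore given for them as description, without a test, and so is Cyp26a1 in every comparison, because the other comparisons share its samples. Liver poly(A) RNA of male Wistar rats, 75 to 100 g at the start, was sequenced in 3 groups. Rats of the cirrhosis group inhaled CCl4 3 times a week for 12 weeks and drank water with 0.35 g/L phenobarbital. Rats of the cirrhosis & eplerenone group had the same and took eplerenone, a blocker of the mineralocorticoid receptor, at 100 mg/kg in hazelnut spread from week 8 to week 12. Controls received neither CCl4 nor phenobarbital, so that the effects of CCl4 and of phenobarbital cannot be told apart here. Livers of treated rats were collected 7 to 10 days after the last CCl4. Animals entered sequencing after the study had judged that induction of cirrhosis or treatment had worked, which limits the groups as samples of all treated rats.

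The liver is the main store of vitamin A. Hepatic stellate cells hold it as retinyl esters in lipid droplets, made by the acyltransferase LRAT, and lose these droplets when they turn into matrix-producing cells. Hepatocytes release retinol to the blood bound to RBP4. Retinol is oxidised to retinaldehyde, which DHRS3 reduces back to retinol, and retinaldehyde dehydrogenases such as ALDH1A1 and ALDH1A2 turn retinaldehyde into retinoic acid. Retinoic acid acts through the nuclear receptors RAR and RXR and is cleared by the cytochromes CYP26A1, CYP26B1 and CYP26C1. Cyp26a1 is a textbook target gene of the receptors it serves. Rarres2 encodes chemerin, a secreted attractant of immune cells whose gene was found through its response to a synthetic retinoid.

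The promoters of the 8 genes were looked up in RefSeq (assembly GRCr8) and all 8 matched. Each covers 250 bases before the start site and 50 bases after it. They were searched on both strands for pairs of the receptor core letters AGGTCA, or of the variant AGTTCA, of the variant GGGTCA or of the variant GGTTCA, set as direct repeats with 5, 2 or 1 bases between them (DR5, DR2 and DR1). Among the 8 genes only Cyp26a1 held such a pair. It was a DR5 on the minus strand from 92 to 76 bases before the start site, which reads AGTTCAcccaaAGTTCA on that strand. A DR5 of these letters occurred in 128 of 33469 promoters (0.382%), and any of the spacings in 260 (0.777%). Of the promoters of 49 other retinoid genes, 1 held a pair, that of Rarb, the retinoic acid receptor beta, with a DR5 from 25 to 41 bases after the start site. A match is a description of letters, and the window says nothing of sites farther away. The 3 sequences are shown because they belong to Cyp26a1, to its immediate neighbour Cyp26c1, and to the receptor gene with the other match; all run 5′ to 3′ along the gene, and capitals mark the repeats, which appear in Cyp26a1 as TGAACT, the reverse complement of AGTTCA.
Cyp26a1, chr1:244883572-244883871, plus strand: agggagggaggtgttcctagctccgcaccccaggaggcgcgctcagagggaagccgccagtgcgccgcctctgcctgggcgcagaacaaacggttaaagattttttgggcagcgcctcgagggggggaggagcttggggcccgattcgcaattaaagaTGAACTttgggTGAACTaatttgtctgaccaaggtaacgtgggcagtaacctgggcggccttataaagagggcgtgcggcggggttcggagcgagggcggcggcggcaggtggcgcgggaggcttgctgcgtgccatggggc
Cyp26c1, chr1:244870162-244870461, plus strand: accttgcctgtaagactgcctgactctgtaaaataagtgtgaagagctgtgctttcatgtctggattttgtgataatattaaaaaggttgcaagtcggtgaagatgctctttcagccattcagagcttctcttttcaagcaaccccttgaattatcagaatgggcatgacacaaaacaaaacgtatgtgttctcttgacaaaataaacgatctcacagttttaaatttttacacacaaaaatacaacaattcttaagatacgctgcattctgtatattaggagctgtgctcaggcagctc
Rarb, chr15:11336142-11336441, plus strand: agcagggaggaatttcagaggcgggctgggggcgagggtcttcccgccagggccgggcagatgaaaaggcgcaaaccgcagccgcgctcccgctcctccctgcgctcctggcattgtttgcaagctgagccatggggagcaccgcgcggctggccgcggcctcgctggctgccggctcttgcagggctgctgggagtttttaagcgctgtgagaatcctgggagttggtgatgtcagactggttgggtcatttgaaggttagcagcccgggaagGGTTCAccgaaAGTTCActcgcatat

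The table held 14 samples, 4 of control (replicates 2 to 5), 5 of cirrhosis and 5 of cirrhosis & eplerenone, with 16157491 to 21574767 counted reads each. The study left out 1 control that lay apart from the other 4 on principal components, and does not say which. The control spread given here is therefore that of the 4 livers in the table. Levels are given as FPM, counts per 1000000 of the TMM-scaled library size; 3 counts stand for 0.121 to 0.191 FPM. FPM is not corrected for gene length, so levels are compared between samples and not between genes. All 8 genes were among the 14417 tested. On the first principal component of the 500 most variable genes, which held 66.6% of the variance, controls lay between 44.3 and 50.6 and cirrhosis replicates 1 to 4 between -47.7 and -38.0. Cirrhosis replicate 5 stood apart at 13.03, and cirrhosis & eplerenone replicate 3 lay at -42.6 while the other 4 of its group lay between -18.5 and 26.8. Calls of the 8 genes that change without these 2 libraries are given both ways; leaving them out separates the groups by construction. Sample names of treated rats begin with 15 or 20 and those of controls with 13 or 16. What these prefixes stand for is not stated in the sources used here, and prefix and CCl4 treatment cannot be told apart. In bulk tissue, fewer cells of a type and less RNA per cell cannot be told apart either.

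**Figure D1:**
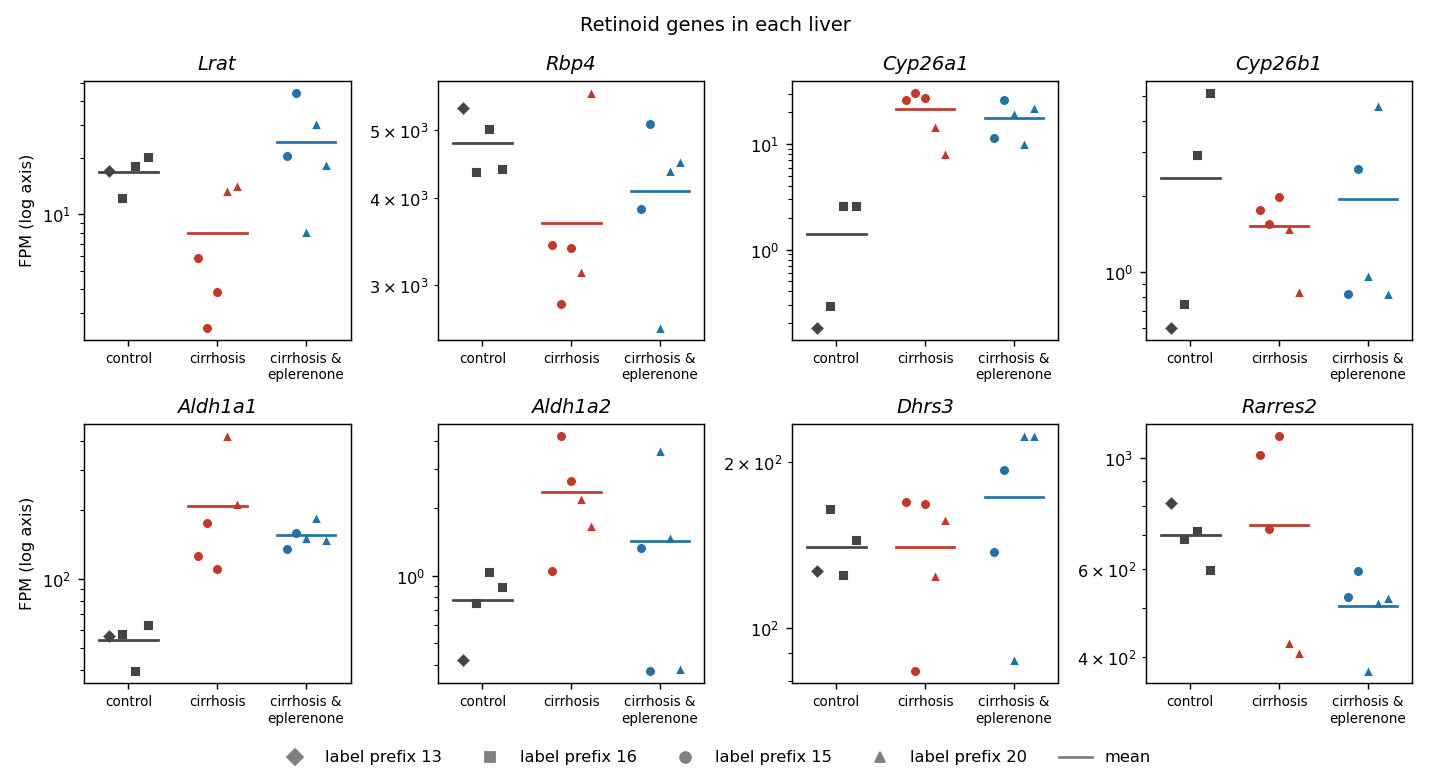
Levels of the 8 genes in FPM (log axis) in each of 4 control, 5 cirrhosis and 5 cirrhosis & eplerenone livers; points are rats, shaped by the prefix of the sample name, and lines are group means. For Cyp26a1 the treated rats lie at 8.09 FPM or above and the controls at 2.61 FPM or below, and for Aldh1a1 every treated rat lies above every control.

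Cyp26a1, the main retinoic acid hydroxylase of liver (ENSRNOG00000016750), was low in controls and high in all 10 treated rats. Control replicates 2, 3, 4 and 5 had 0.181, 0.289, 2.56 and 2.61 FPM, from 3, 5, 42 and 41 counts. Cirrhosis replicates 1 to 5 had 26.5, 30.7, 27.5, 14.5 and 8.09 FPM. Cirrhosis & eplerenone replicates 1 to 5 had 11.3, 26.3, 19.3, 9.93 and 22.1 FPM. The treated groups overlapped with each other and neither overlapped with control, where replicates 2 and 3 were lower than replicates 4 and 5. The 4 controls averaged 1.41 ± 1.36 FPM (SD, n = 4), the cirrhosis livers 21.4 ± 9.68 FPM (SD, n = 5) and the livers with eplerenone 17.8 ± 7.01 FPM (SD, n = 5). The fitted log2FC was 3.93 with a standard error of 0.66 (15.3-fold) for cirrhosis against control and 3.66 with a standard error of 0.65 (12.6-fold) for cirrhosis & eplerenone against control. Between the treated groups it was -0.27 with a standard error of 0.51. By size of log2FC Cyp26a1 was number 88 among the 624 genes that rose with an FDR below 0.05 in the comparison that chose it. Because the gene was chosen for this rise, neither its place nor its presence among them is a test. Within samples whose names begin with 15, the mean went from 28.2 FPM in cirrhosis to 18.8 FPM with eplerenone, and within those that begin with 20 it went from 11.3 to 17.1 FPM. The order of the treated groups was thus opposite in the 2 prefixes, with 3 and 2 cirrhosis rats and 2 and 3 rats with eplerenone. Without cirrhosis replicate 5 and cirrhosis & eplerenone replicate 3, the log2FC was 4.16 for cirrhosis against control and -0.53 between the treated groups.

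Cyp26b1, the sister hydroxylase that clears retinoic acid in other cell types, did not share this pattern. Controls 2 to 5 had 0.603, 0.752, 2.93 and 5.15 FPM. Cirrhosis livers had 1.77, 1.55, 2.00, 1.49 and 0.833 FPM, and livers with eplerenone had 0.818, 2.57, 0.971, 4.57 and 0.820 FPM. The groups overlapped throughout, on 10 to 81 counts per sample. The log2FC of cirrhosis against control was -0.62 (95% interval -1.99 to 0.75, edgeR FDR = 0.490), and that of cirrhosis & eplerenone against cirrhosis was 0.34 (-0.96 to 1.64, edgeR FDR = 0.792). Both intervals leave room for a change in either direction, and single libraries turned both signs. The former was 0.10 without control replicate 5 and -0.94 without control replicate 2, and the latter was -0.25 without cirrhosis & eplerenone replicate 4 and 0.53 without replicate 5 of that group. In controls Cyp26a1 and Cyp26b1 had the same order, with the lower pair in replicates 2 and 3.

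Cyp26c1, the remaining member of the family and the gene next to Cyp26a1 in RefSeq gene order, was barely seen in controls, with 2, 2, 4 and 5 counts. Cirrhosis livers had 99, 123, 115, 54 and 16 counts, or 0.952 to 6.20 FPM, and livers with eplerenone had 17, 67, 52, 45 and 50 counts, or 0.869 to 4.19 FPM. It rose in cirrhosis by a log2FC of 4.32 with a standard error of 0.64 (edgeR FDR = 0.00113), a size that depends on the prior count because controls were close to 0. Between cirrhosis and cirrhosis & eplerenone its log2FC was -0.72 (edgeR FDR = 0.449). In the 10 treated rats the FPM of Cyp26c1 was 7.66% to 25.6% of that of Cyp26a1, lowest and highest in the eplerenone group. Cyp2c22, a liver cytochrome that also takes retinoic acid, rose in cirrhosis by a log2FC of 0.72 (edgeR FDR = 0.0464), and this call held in 3 of 14 fits that left out a library.

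**Figure D2:**
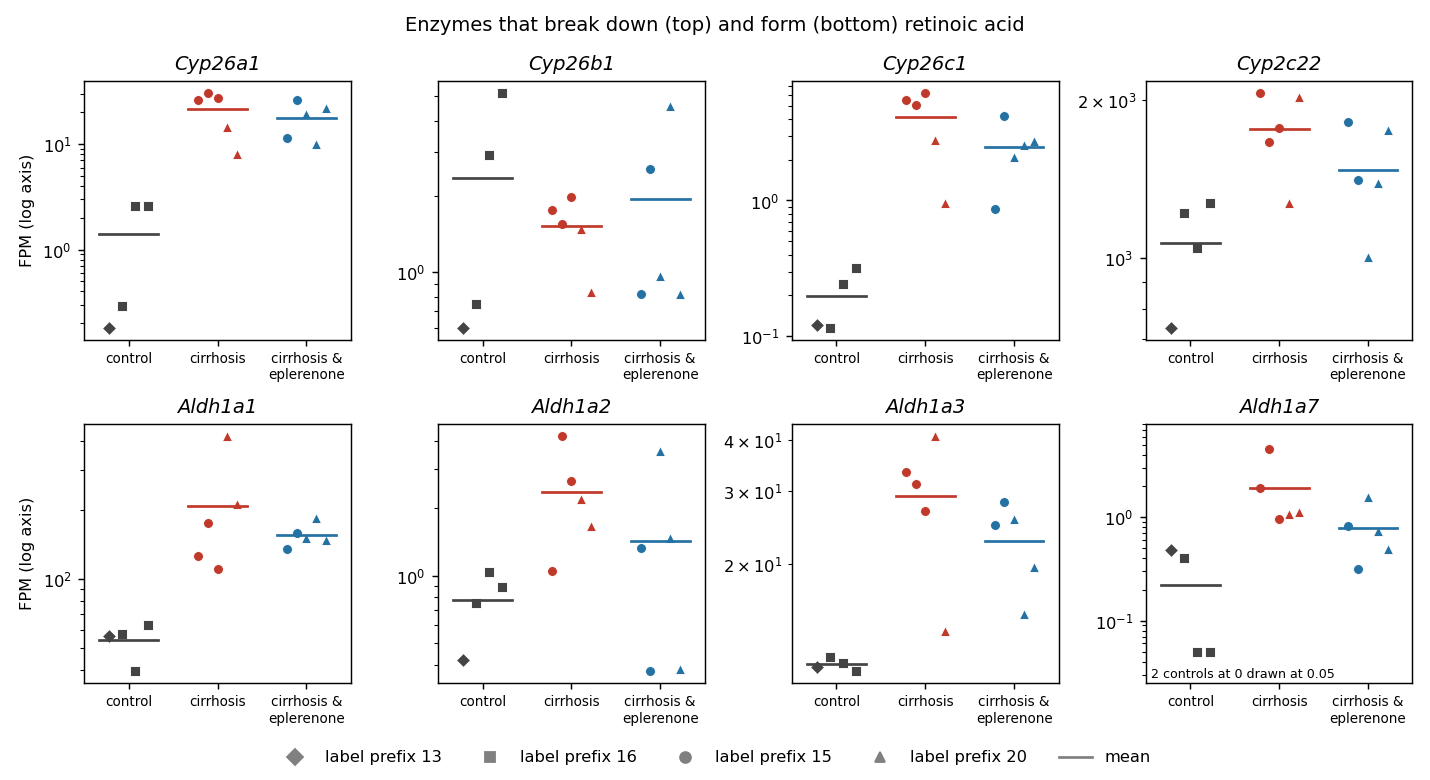
Enzymes that break down retinoic acid (Cyp26a1, Cyp26b1, Cyp26c1, Cyp2c22, top) and aldehyde dehydrogenases of the Aldh1a family (bottom) in FPM (log axis); points are rats, shaped by the prefix of the sample name, and lines are group means. Cyp26a1 and Cyp26c1 lie higher in all 10 treated rats than in the 4 controls, while for Cyp26b1 the groups overlap.

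Lrat, which makes the stored esters (ENSRNOG00000025608), was lowest in 3 cirrhosis livers and highest in 3 livers with eplerenone. Controls 2 to 5 had 17.1, 12.3, 18.1 and 20.2 FPM. Cirrhosis livers 1 to 5 had 5.82, 2.49, 3.88, 13.3 and 14.1 FPM. Livers with eplerenone had 20.6, 44.5, 8.10, 30.4 and 18.4 FPM. Cirrhosis replicates 1 to 3 lay below every other liver, and replicates 4 and 5 reached into the control range. The log2FC of cirrhosis against control was -1.09 with a standard error of 0.49 (edgeR FDR = 0.118), and without cirrhosis replicate 5 it was -1.41 (edgeR FDR = 0.0445). The log2FC of cirrhosis & eplerenone against cirrhosis was 1.62 with a standard error of 0.47, which has a 95% interval of 0.62 to 2.63 (edgeR FDR = 0.312). It was higher in all 14 fits that left out a library, by 1.29 to 1.93, and none of these passed an FDR of 0.05. With 4 samples per group, without cirrhosis replicate 5 and cirrhosis & eplerenone replicate 3, it was 2.14 (edgeR FDR = 0.0196), in a fit that called 9.16% of all genes. The same fit called 3 of 8 markers of activated and 2 of 11 of quiescent stellate cells lower with eplerenone, and none higher. Among them were Acta2 (log2FC -1.96, edgeR FDR = 0.0276), Tagln (-1.70, edgeR FDR = 0.0277) and Des (-1.36, edgeR FDR = 0.0374). With all samples the summed activated markers had a median of 382 FPM in cirrhosis and 403 FPM with eplerenone. The part of these markers in the Lrat value was not tested. The difference was not alike in the 2 prefixes of the sample names. Under 15 the mean was 4.07 FPM in 3 cirrhosis livers and 32.5 FPM in 2 livers with eplerenone, a log2 difference of 2.98. Under 20 it was 13.7 FPM in 2 and 19.0 FPM in 3 livers, a log2 difference of 0.27. The test of this difference between prefixes gave an interaction of -2.49 on the log2 scale (edgeR FDR = 0.373). Against control, livers with eplerenone had a fitted log2FC of 0.53 with a standard error of 0.49.

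The other genes of ester storage and lipid droplets moved in both directions in cirrhosis. Of 9 tested, 2 rose and 1 fell, where 20.2% of all genes were called. Lpl, the lipoprotein lipase, rose from 7.501 ± 3.65 FPM (SD, n = 4) to 69.4 ± 28.2 FPM (SD, n = 5), with a log2FC of 3.21 (edgeR FDR = 0.00294). Rbp7, an intracellular retinol-binding protein, rose by a log2FC of 2.90 (edgeR FDR = 0.0177), on 0.893 to 20.8 FPM in cirrhosis, and was not called without control replicate 3 (FDR = 0.0535). Plin2, the coat protein of lipid droplets, fell by 1.41 on the log2 scale (edgeR FDR = 0.0179), and was not called without control replicate 4 (FDR = 0.0562) or 5 (FDR = 0.0671).

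Rbp4, the retinol carrier of plasma (ENSRNOG00000015518), had its lowest values in treated rats. Controls had 5370, 4359, 5009 and 4396 FPM. Cirrhosis livers had 3429, 2815, 3392, 3136 and 5647 FPM, and livers with eplerenone had 3859, 5091, 2608, 4368 and 4504 FPM. With TMM scaling 4 cirrhosis livers lay below every control, and cirrhosis replicate 5 lay above every control. With FPM over total counts cirrhosis replicate 4, at 3785 FPM, lay within the control range of 3723 to 4705 FPM. Over 9 other settings of the fit the log2FC of cirrhosis against control ran from -0.56 to -0.11, with 1 call. The log2FC was -0.38 (95% interval -0.91 to 0.16, edgeR FDR = 0.282) for cirrhosis against control and 0.15 (-0.36 to 0.66, edgeR FDR = 0.763) for cirrhosis & eplerenone against cirrhosis. With 4 samples per group, without cirrhosis replicate 5 and cirrhosis & eplerenone replicate 3, the former was -0.56 (edgeR FDR = 0.0249). That fit called 34.2% of all genes in cirrhosis against control. Ttr, transthyretin, the plasma partner of RBP4, had a log2FC of -0.71 in cirrhosis (edgeR FDR = 0.0944), and of -0.88 in that fit (edgeR FDR = 0.0164). Of 5 other transport genes tested 1 passed in cirrhosis against control, where 20.2% of all genes were called. It was the receptor Lrp1, which fell by 0.92 on the log2 scale (edgeR FDR = 0.0424) and passed in 5 of 14 fits that left out a library. Stra6, a cell surface receptor for RBP4, had at most 12 counts in any liver and was not tested.

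Aldh1a1, a retinaldehyde dehydrogenase (ENSRNOG00000017619), was higher in all 10 treated rats than in any control. Controls had 56.2, 57.1, 39.6 and 62.9 FPM. Cirrhosis livers had 126, 176, 110, 421 and 212 FPM, and livers with eplerenone had 135, 159, 150, 184 and 147 FPM. Cirrhosis replicate 4 was the highest by far, and the livers with eplerenone were close to each other. It rose in cirrhosis by a log2FC of 1.95 with a standard error of 0.33, or 3.87-fold (edgeR FDR = 0.00191), and this held in 14 of 14 fits that left out a library, with log2FC from 1.55 to 2.12. It was the 1 gene called of the 7 that were tested in this comparison, in which 20.2% of all genes were called. Between cirrhosis & eplerenone and cirrhosis its log2FC was -0.43 (95% interval -1.06 to 0.20, edgeR FDR = 0.468), and without cirrhosis replicate 4 it was -0.0086. Against control, livers with eplerenone had a fitted log2FC of 1.52. Multi-mapping reads were kept in the counts, so that Aldh1a1 and its close copy Aldh1a7 may share reads. Aldh1a7, named after its values were seen, had 0 to 8 counts in controls and 18 to 113 in cirrhosis.

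Aldh1a2, the dehydrogenase of embryonic and mesenchymal cells (ENSRNOG00000055049), was scarce, with 6 to 103 counts per sample. Controls had 0.422, 0.752, 1.04 and 0.890 FPM. Cirrhosis livers had 1.05, 4.20, 2.64, 2.21 and 1.67 FPM, and livers with eplerenone had 1.33, 0.375, 3.60, 1.47 and 0.382 FPM. All cirrhosis livers lay above all controls, replicate 1 by a narrow margin, as did 11.2% of all genes in this comparison. The log2FC was 1.60 with a standard error of 0.63 (edgeR FDR = 0.0799). DESeq2 gave an FDR of 0.0372, in a test that called 27.8% of all genes, the fit of only these 2 groups an edgeR FDR of 0.0321, and the fit without cirrhosis & eplerenone replicate 3 an edgeR FDR of 0.0412. With eplerenone a pair of livers was at the lowest level of all samples and replicate 3 near the highest, and the log2FC against cirrhosis was -0.70 (95% interval -1.89 to 0.48, edgeR FDR = 0.5261). Without that replicate it was -1.42.

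Dhrs3, the reductase that returns retinaldehyde to retinol (ENSRNOG00000015736), had nearly equal group means in control and cirrhosis with TMM scaling. Controls had 127, 164, 125 and 144 FPM. Cirrhosis livers had 169, 83.4, 168, 124 and 157 FPM, and livers with eplerenone had 137, 194, 87.2, 223 and 223 FPM. The groups overlapped, and 3 livers with eplerenone lay above all others. The log2FC was 0.00 (95% interval -0.57 to 0.58, edgeR FDR = 0.994) for cirrhosis against control and 0.30 (-0.24 to 0.84, edgeR FDR = 0.548) for cirrhosis & eplerenone against cirrhosis. Over 9 other settings of the fit the former ran from -0.02 to 0.27, with 0 calls.

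Of 13 other genes of retinol oxidation and carotenoid cleavage tested, 2 rose and 3 fell in cirrhosis, where 20.2% of all genes were called. Aldh1a3, another retinaldehyde dehydrogenase, rose from 11.4 ± 0.38 FPM (SD, n = 4) to 29.2 ± 10.0 FPM (SD, n = 5), with a log2FC of 1.36 (edgeR FDR = 0.00374). The other rise was that of Aldh1a7 (log2FC 3.09, edgeR FDR = 0.0236), which was not called without control replicate 4 (FDR = 0.0564) or 5 (FDR = 0.0650) or cirrhosis replicate 2 (FDR = 0.0504). Rdh10, the main retinol dehydrogenase of development, fell from 46.0 ± 5.87 to 21.3 ± 4.80 FPM, by 1.11 on the log2 scale (edgeR FDR = 0.00292). Adh7, an alcohol dehydrogenase that accepts retinol, fell by 1.26 (edgeR FDR = 0.00643), and Bco2, which cleaves carotenoids, fell by 1.13 (edgeR FDR = 0.0187), both on the log2 scale. Bco2 was not called without control replicate 3 (FDR = 0.0517). In cirrhosis Rdh10, of the first step of retinoic acid synthesis, was thus lower, and Aldh1a1 and Aldh1a3, of the second, were higher.

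**Figure D3:**
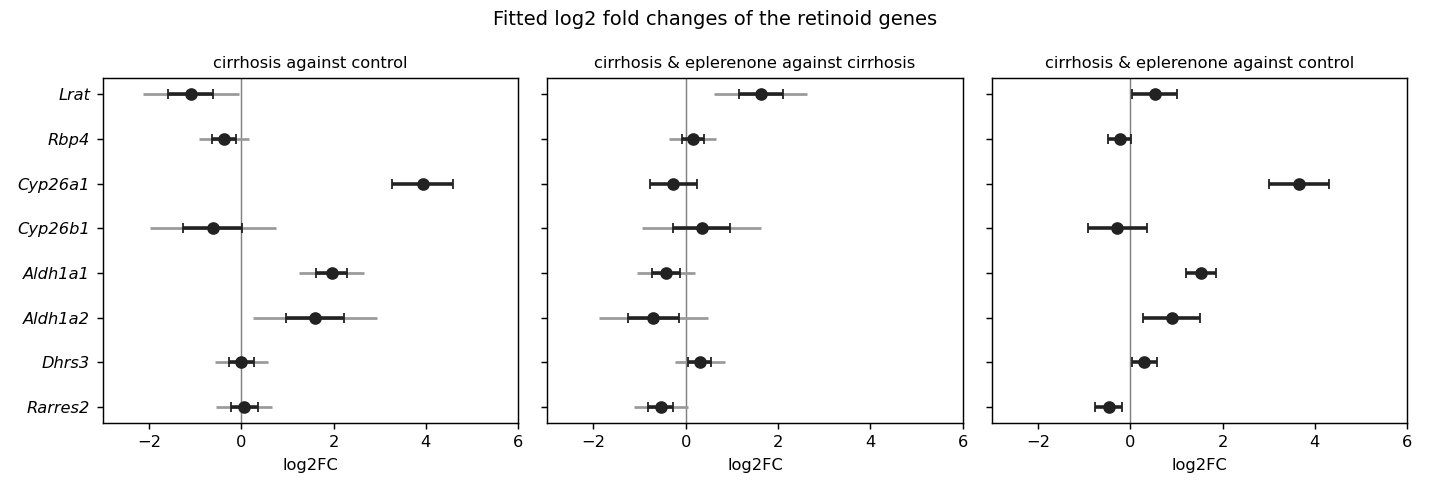
Fitted log2FC of the 8 genes in the 3 comparisons; points are estimates, black bars with caps standard errors, and grey lines 95% intervals, drawn only for tested genes. In cirrhosis against control Aldh1a1 passed the test at 1.95, and in cirrhosis & eplerenone against cirrhosis Lrat had the highest estimate at 1.62 without passing.

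Rarres2, chemerin (ENSRNOG00000024705), split the cirrhosis group. Controls had 810, 688, 713 and 595 FPM. Cirrhosis livers had 1014, 721, 1106, 426 and 407 FPM, and livers with eplerenone had 526, 593, 374, 513 and 525 FPM. Cirrhosis replicates 1 and 3 lay above every control and replicates 4 and 5 below, while every liver with eplerenone lay below every control, by 593 against 595 FPM at the nearest. With FPM over total counts these groups overlapped, with 494 to 587 FPM with eplerenone and 504 to 710 FPM in control. The log2FC of cirrhosis against control was 0.07 (95% interval -0.54 to 0.68, edgeR FDR = 0.879). That of cirrhosis & eplerenone against cirrhosis was -0.54 (-1.11 to 0.04, edgeR FDR = 0.364). Within names that begin with 15 the mean was 947 FPM in cirrhosis and 559 FPM with eplerenone, and within those that begin with 20 it was 417 and 471 FPM (interaction 0.99 on the log2 scale, edgeR FDR = 0.404). For Aldh1a1 the same interaction was -1.03 (edgeR FDR = 0.412), with means of 137 and 147 FPM under 15 and of 316 and 160 FPM under 20. Thus 3 of the 7 tested genes had an interaction with an unadjusted p under 0.05, against 12.1% of all genes, and with edgeR no gene of the table had an FDR below 0.05 for it. The main chemerin receptor Cmklr1 had a log2FC of 1.07 in cirrhosis (edgeR FDR = 0.119). Without cirrhosis replicate 5 and cirrhosis & eplerenone replicate 3 it was 1.30 (edgeR FDR = 0.0381), in a fit that called 34.2% of all genes.

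Eplerenone against cirrhosis gave no call among the 7 tested genes with edgeR or with DESeq2, and 1 of 7, Lrat, had an unadjusted edgeR p under 0.05. In that comparison 0.0139% of all genes were called by edgeR, 0.514% were called by DESeq2 and 14.4% had an unadjusted p under 0.05. The median log2FC of the 7 genes was 0.15, against 0.01 over all genes. In cirrhosis & eplerenone against control, the comparison that chose them, 5.22% of all genes were called. There Cyp26a1 and Aldh1a1 lay above and, with TMM scaling, Rarres2 below control without overlap, and Rbp4, Cyp26b1, Aldh1a2 and Dhrs3 had fitted log2FC of -0.23, -0.28, 0.90 and 0.31. Of all genes, 6.42% lay above control and 4.46% below it without overlap.

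Of the whole list of other retinoid genes, 66 were listed, 58 had a row and 48 were tested. In cirrhosis against control 7 rose and 9 fell, which is 33.3% of 48 where 20.2% of all genes were called, with a median log2FC of -0.08 against -0.01 over all genes. In cirrhosis & eplerenone against cirrhosis none was called by edgeR, and 8 had an unadjusted p under 0.05. Among these were the nuclear receptor Rxra, with a log2FC of 1.75 (edgeR FDR = 0.312), and Rbp7, with -1.95 (edgeR FDR = 0.312). With 4 samples per group, without cirrhosis replicate 5 and cirrhosis & eplerenone replicate 3, 9 were called, 6 higher and 3 lower with eplerenone, in the fit that called 9.16% of all genes. Rxra (2.27) and Lrp1 (1.04) were among the higher, and Lpl (-1.68) and Rbp7 (-2.28) were among the lower. In cirrhosis & eplerenone against control 4 were higher and 4 lower with an FDR below 0.05, which is 16.7% of 48 where 5.22% of all genes were called.

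**Figure D4:**
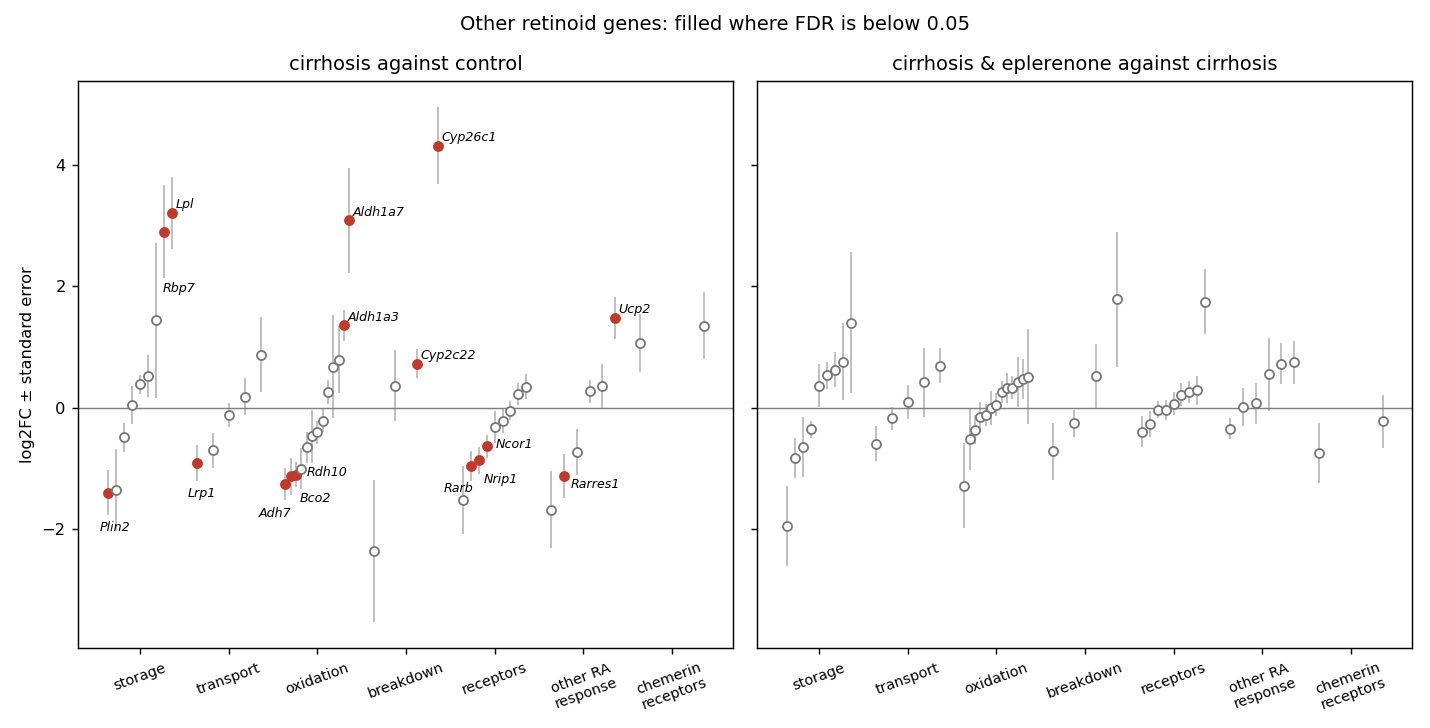
Fitted log2FC with standard errors of the 48 other retinoid genes tested, each drawn in the first group that lists it, in cirrhosis against control (left) and cirrhosis & eplerenone against cirrhosis (right); filled points have an edgeR FDR below 0.05. On the left 16 genes are filled, from Cyp26c1 at 4.32 to Plin2 at -1.41, and on the right none is.

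Of 9 receptors and partners tested, 3 fell and none rose in cirrhosis with edgeR, where 20.2% of all genes were called. In the same comparison 4 had an unadjusted p under 0.05, as did 37.1% of all genes. Rarb had 24.2, 40.8, 40.8 and 46.7 FPM in controls and 13.7 to 28.4 FPM in cirrhosis, and fell by 0.97 on the log2 scale (edgeR FDR = 0.0169). Nrip1, a corepressor that binds liganded receptors, fell by 0.87 (edgeR FDR = 0.0148), and the corepressor Ncor1 by 0.64 (edgeR FDR = 0.0305), both on the log2 scale. With total counts in place of TMM, which raised the median log2FC of all genes by 0.27, none of the 3 passed, with FDR of 0.112 for Rarb, 0.116 for Nrip1 and 0.193 for Ncor1. Without control replicate 5, Rarb (edgeR FDR = 0.0610) and Nrip1 (edgeR FDR = 0.0592) were not called either, and each held in the other 13 fits that left out a library. Ncor1 was called in 8 of these 14 fits and not without control replicate 3, 4 or 5 or cirrhosis replicate 1, 3 or 4, with an FDR of up to 0.0973. Rara had a log2FC of -0.22 (edgeR FDR = 0.441), and Rxra, the common partner of the receptors, of -1.52 (edgeR FDR = 0.0634 and DESeq2 FDR = 0.0236), on 29.7 to 97.7 FPM in control and 9.01 to 35.4 FPM in cirrhosis. Without cirrhosis replicate 5 and cirrhosis & eplerenone replicate 3 the log2FC of Rxra was -1.78 (edgeR FDR = 0.0120), in a fit that called 34.2% of all genes.

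Of 10 tested genes known to respond to retinoic acid, 2 rose and 2 fell in cirrhosis, where 20.2% of all genes were called. Cyp26c1 and Ucp2, a mitochondrial carrier (log2FC 1.47, edgeR FDR = 0.0101), were higher. Rarb and Rarres1, which fell by 1.13 on the log2 scale (edgeR FDR = 0.0387), were lower, the latter in 6 of 14 fits that left out a library. The genes with a DR5 in the window shown above, Cyp26a1 and Rarb, had log2FC of opposite sign in cirrhosis against control, 3.93 and -0.97.

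By Pearson correlation of log2 FPM over all 14 samples, the genes most like Cyp26a1 of 14416 were Ska2 (0.94), Cyp26c1 (0.93), Gpnmb (0.92), Dnm1 (0.92) and Slc1a7 (0.92). All 5 share the step between control and treated rats. Within the 10 treated rats they were 0.69, 0.85, 0.67, 0.38 and 0.13. The genes most like Lrat were Tob1 (0.91), Cyp4b1 (0.89), Rnf103 (0.89), AC109891.1 (0.89) and Eif4g1 (0.88), with 0.93, 0.89, 0.90, 0.96 and 0.92 within the 10 treated rats. These are descriptions of 14 libraries that share groups and scaling.

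Markers of the cells that carry these genes moved with the groups too. Their counts in cirrhosis against control stand beside 20.2% of all genes called. Of 11 tested markers of quiescent stellate cells, where Lrat and ester storage belong, 4 rose and 2 fell in cirrhosis, and the sum over the 12 measured markers was 273 to 338 FPM in control, 237 to 551 in cirrhosis and 283 to 353 with eplerenone. Among its first genes Des rose (log2FC 2.31, edgeR FDR = 0.00589), and Reln had -1.002 (edgeR FDR = 0.110). Des moved in the direction of the activated markers that follow, so its rise is not read as one of quiescent cells. Of 8 tested markers of activated stellate cells 7 rose, with Acta2 at 2.84 and Tagln at 2.73, and their sum was 128 to 228 FPM in control, 281 to 601 in cirrhosis and 375 to 567 with eplerenone; of the 9 measured, Postn was at 0 in all controls. Mesothelial markers, of cells known for Aldh1a2, summed to 189 to 307 FPM in control, 268 to 1333 in cirrhosis and 274 to 600 with eplerenone. This sum includes the keratin Krt8 and gives no measure of the number of mesothelial cells. Of 6 tested, 2 rose, Msln among them (3.64, edgeR FDR = 0.00095). Upk3b, listed beside Msln, had a log2FC of 0.39 to 1.11 over 8 other settings of the fit and was called in none of these. Hepatocyte markers, of the cells that make RBP4, summed to 176134 to 205216 FPM in control, 140615 to 191494 in cirrhosis and 107359 to 197036 with eplerenone; 1 of 10 fell and none rose, and all 10 were found in every group.

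Cholangiocyte markers rose in cirrhosis in 7 of 8 cases, lymphocyte markers in 5 of 7 and macrophage markers in 1 of 7, where 1 fell. Of 6 endothelial markers 3 fell. In this comparison 20.2% of all genes were called. The endothelial sum was 223 to 278 FPM in control, 53.0 to 223 in cirrhosis and 148 to 229 with eplerenone. The cholangiocyte sum was 29.5 to 39.1, 69.1 to 125 and 58.8 to 117 FPM in the same order, the macrophage sum 200 to 345, 247 to 455 and 167 to 495 FPM, and the lymphocyte sum 6.53 to 16.3, 19.996 to 32.1 and 14.3 to 34.7 FPM. With all 14 samples no marker of these 8 lists was called in cirrhosis & eplerenone against cirrhosis. Without cirrhosis replicate 5 and cirrhosis & eplerenone replicate 3, in the fit that called 9.16% of all genes, 2 of 11 markers of quiescent and 3 of 8 of activated stellate cells were lower with eplerenone, as were 2 of 6 mesothelial markers, with Msln at -2.59 (edgeR FDR = 0.00523). In that fit 1 of 6 endothelial markers was higher, 1 of 7 macrophage markers was higher and 1 lower, and no hepatocyte, cholangiocyte or lymphocyte marker was called. The part of these cells in the levels of Lrat, Rbp4, Aldh1a1, Aldh1a2 and Cyp26a1 was not tested.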

How the data were processed

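The authors selected poly(A) RNA with a RIN above 7, read 150 bp from both ends, mapped to rn6 with HISAT2 2.1.0 and counted exonic reads of each gene with featureCounts, multi-mapping reads included. The use of strand is not given in the sources used here. The deposited table holds raw counts, with no normalization. Of 32623 genes 11341 had no count. The labels list 15 samples and 14 columns were used. Control replicate 1 had no column and was not analysed here. The study states that it excluded 1 control for its place in the principal component analysis.

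Counts were filtered with filterByExpr (smallest count 10), scaled by TMM and fitted over the 3 groups in 1 model with the quasi-likelihood test of edgeR 4.0.16 in R 4.3.3. The Benjamini-Hochberg adjustment ran over 14417 genes, and an FDR below 0.05 was the call. DESeq2 1.42.0, other scalings, filters and samples were alternatives. Intervals of log2FC use the t distribution. The rats of a group are separate samples, and nothing in the labels pairs them. Of 13 pairs with the same replicate number 3 had deviations correlated above 0.1 (range -0.33 to 0.19), so no pairing was used. Counts give the depth, and 3 counts stand for 0.121 to 0.191 FPM, which covers counting error only. The steps were tested on simulated data: for cirrhosis & eplerenone against cirrhosis 76.5% of 200 genes changed 4-fold were found among 14167.

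The genes and lists were chosen with earlier results of these data known. Named are the 8 genes, up to 4 called genes with the lowest p in each group of the retinoid list, Ttr, Stra6, Rdh10, Rara, Rarb, Rxra and Cmklr1, the 5 genes most like Cyp26a1 and Lrat (log2 FPM, prior count 2), and the first genes of marker lists. Aldh1a7 is outside this rule. Some genes that the rule includes are left out of the text. Among them are the first genes of the hepatocyte, cholangiocyte, endothelial, macrophage and lymphocyte lists. Sequences come from RefSeq GRCr8, and the counts from rn6.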

Additional observations from a re-analysis of the deposited data

Results flagged for a closer look

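Of 24 groups of 4 or 5 samples examined, 3 for each of the 8 genes, 1 had a sample far from the others. Rbp4 in cirrhosis replicate 5 was at 5647 FPM, while the other 4 cirrhosis livers had 2815 to 3429 FPM. The gap to the nearest was 0.783 of the whole range, above the critical value of 0.71 for 5 samples. Chance passes this limit in about 1 in 20 groups. The same liver stood apart on the first principal component, at 13.03 where the rest of its group lay between -47.7 and -38.0, and had the lowest Cyp26a1 (8.09 FPM) and the highest Lrat (14.1 FPM) of the cirrhosis group.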

How the results depend on the processing

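Each result was recomputed with other scalings, filters, tests and samples, and no log2FC that had been called changed its sign. Of the 7 tested members, 1 was called in cirrhosis against control, where 20.2% of all genes were called. DESeq2 called 2, beside 27.8% of all genes, and the fit of only the 2 groups called 2. With 4 samples per group, without cirrhosis replicate 5 and cirrhosis & eplerenone replicate 3, 4 were called (Lrat, Rbp4, Aldh1a1 and Aldh1a2). That fit called 34.2% of all genes. Leaving out 1 library gave 1 to 2. Of the other retinoid genes 16 were called, 28 with 4 samples per group and 8 to 25 without 1 library, with 8 without control replicate 5, 10 without control replicate 3 or 4, and 25 without cirrhosis replicate 5. In cirrhosis & eplerenone against cirrhosis, 4 samples per group called 1 member in place of 0 and 9 other retinoid genes in place of 0. That fit called 9.16% of all genes in place of 0.0139%. Leaving out 1 library called 0 members. In cirrhosis & eplerenone against control, 8 other retinoid genes became 3 with the replicate block and 3 to 8 without 1 library (3 without control replicate 3 or 5, 4 without cirrhosis & eplerenone replicate 3 or 5, 5 without control replicate 2 or 4 or cirrhosis & eplerenone replicate 1), and the median log2FC of members, 0.42, became 0.23 to 0.53 without 1 library, 0.66 with total counts in place of TMM and 0.07 with at least 10 counts in every sample, which drops Cyp26a1 and Aldh1a2. The main fit of this last comparison called 5.22% of all genes. The share of all genes called is not given here for the 2-group fit, the fits without 1 library or the replicate block. Their counts are therefore not read as particular to retinoid genes. The cause of these shifts was not tested, beyond fewer samples and the removal of libraries nearest to other groups. With the replicate number as a block, 13 of 125 single-gene results with a test changed their call, all losses; same-numbered samples did not pair. FPM over total counts gave control means of 4137 for Rbp4, 121 for Dhrs3 and 607 for Rarres2, which moved by more than 1 SD. Total counts in place of TMM moved the median gene by 0.27 in cirrhosis against control, 0.02 in cirrhosis & eplerenone against cirrhosis and 0.29 in cirrhosis & eplerenone against control. Low counts limit Cyp26b1, Cyp26c1, Aldh1a2 and the controls of Cyp26a1.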
